A study of Arabidopsis thaliana with 6 samples.

Results

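The root hair specific (RHS) genes of Arabidopsis thaliana are a set of genes named for transcripts found in root hair cells and scarce in the rest of the root. The 10 genes described here were taken by locus: RHS2, RHS8, RHS10, RHS12, RHS13, RHS14, RHS15, RHS16, RHS18 and RHS19, out of 20171 loci tested. All 10 had a probe on the array, through the RefSeq accession of the probe, and 11 probes belonged to them, 1 for each gene and a second for RHS15. They were chosen with the signals of these same 6 arrays in view, in all lines and both treatments, so their values are a description. No p-value is given for any of them, and calls from the fits over all loci are counted at the end without being read as support. The WT, ago2a and ago2c seedlings were all of ecotype Columbia-0 and 14 days old. WT is the wild type, and ago2a and ago2c are lines mutated in the gene of the small RNA binding protein ARGONAUTE2 (AGO2), whose individual mutations are not given in the sources used here. Each line was mock treated or received 200 Gy of gamma radiation from cobalt-60, at 50 Gy per hour over 4 hours, and was sampled 24 hours after irradiation. Each of the 6 conditions was measured on 1 single-colour array, with RNA of whole seedlings (at least 10 for an extraction) pooled from 3 batches, so no condition had a replicate array.

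A root hair is a long, thin outgrowth of a single epidermal cell of the root. It grows only at its tip, where the wall must be loosened, extended and stiffened again, and it takes up water and minerals. In the root epidermis the homeobox protein GL2 keeps non-hair cells from making hairs, while the basic helix-loop-helix proteins RHD6 and RSL1 start hair formation and RSL2 and RSL4 drive hair growth and the transcription of many RHS genes. The RHS genes encode working parts of this process: enzymes and structural proteins of the wall, peroxidases, receptor kinases and transporters.

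Levels are given as a percentage of the signal at the 75th percentile of the same array, and differences as log2 values. The ± after a difference is the spot error that the scanner software estimated for the 2 spots compared. It covers neither the seedlings nor the hybridisation, and it rests on 1 spot per array. Probes printed on 5 spots had a median SD between spots of 0.0526 to 0.0739 (log2) within an array. The AGO2 probe read 11.5% in WT mock and 24.2% in WT irradiated, and it was not well above background on any of the 4 arrays of the ago2 lines. Between 70.5% and 73.4% of probes were well above background on an array, and no probe was saturated. The arrays differed in brightness. The 75th percentile signal was 2167 in WT mock, 2159 in WT irradiated and 2338 in ago2a mock. It was 1688 in ago2a irradiated, 1417 in ago2c mock and 1374 in ago2c irradiated. Arrays also parted by how different probes of 1 locus compared: both WT arrays and ago2a mock formed a first group, ago2a irradiated and both ago2c arrays a second. Each treatment pair of WT and of ago2c thus fell inside 1 group, and the ago2a pair was split between both. WT and ago2a shared a slide, and ago2c had its own.

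In WT the 10 genes stood at about the same level or slightly higher after irradiation, with a median difference of 0.22 (log2) and a range from -0.16 (RHS8) to 0.53 (RHS14). The WT value was above 0 and both ago2 values below 0 for 8 of the 10, as for 12% of all loci, although several of these WT values did not clearly exceed their spot error. In ago2a all 10 were lower after irradiation, with a median of -1.79, and in ago2c all 10 were lower, with a median of -1.60. The medians over all loci tested were -0.01 in WT, 0.06 in ago2a and 0.01 in ago2c. For each of the 10 genes ago2c irradiated was the lowest of the 6 arrays and ago2a irradiated the next, an order found in 10.9% of all loci. For RHS14 this rests on measured values of arrays that were not well above background, so its low ranks are not resolved, and RHS15 was dim on the lowest array. Both irradiated ago2 arrays lay below the other 4 arrays for 15.5% of all loci. Of the 6 arrays ago2a mock was the highest for each of the 10, as for 16.6% of all loci.

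**Figure D1:**
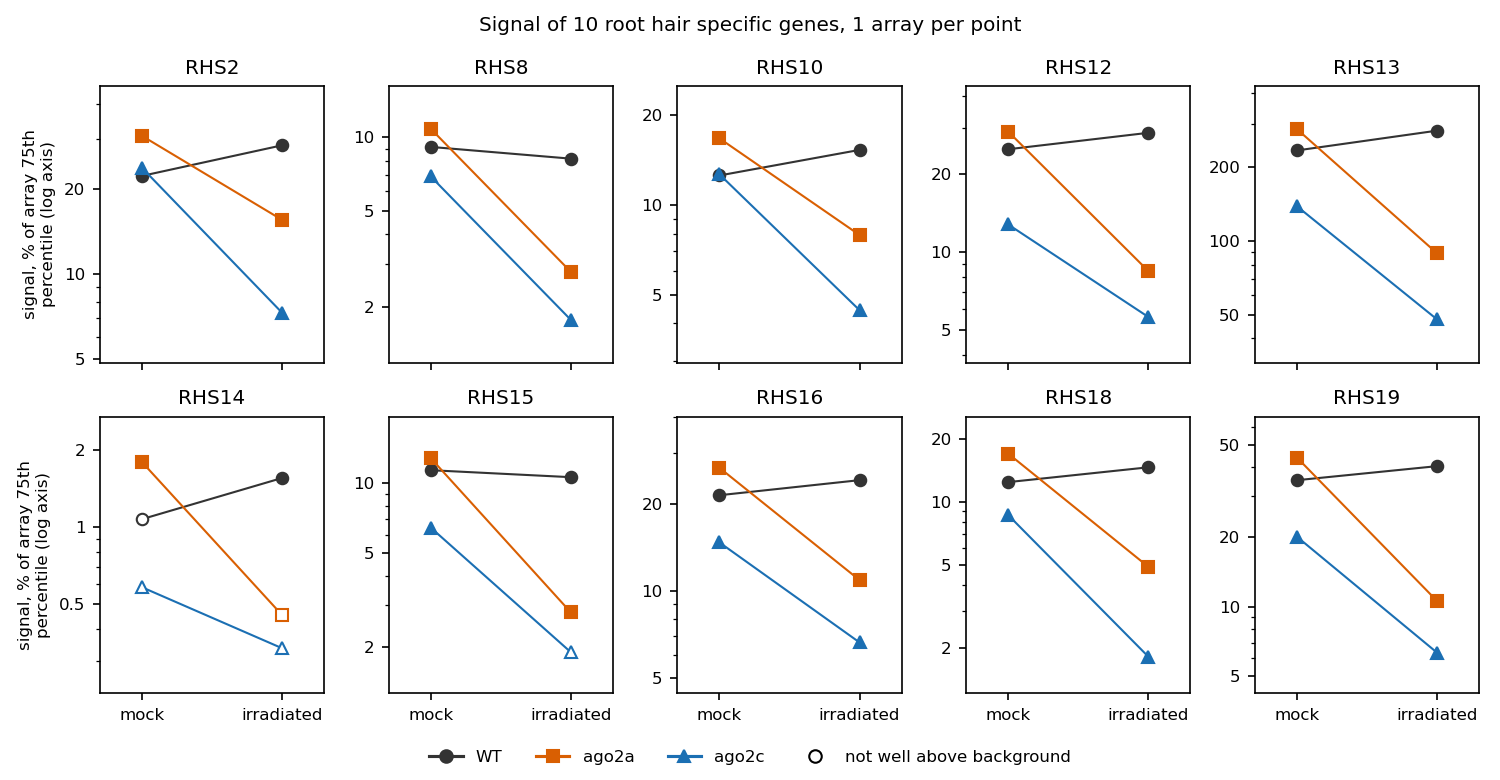
Signal of each of the 10 genes on each array, as a percentage of the 75th percentile of that array on a log axis, for mock and irradiated seedlings of WT (circles), ago2a (squares) and ago2c (triangles), with 1 array per point and open symbols for arrays where the probe was not well above background. The WT lines are nearly level while both ago2 lines slope down, and ago2c irradiated is the lowest point in all 10 panels.

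Of the wall genes RHS13 (AT4G02270), which encodes a protein of the pollen Ole e 1 allergen and extensin family, had the clearest signal. It read 234% of the 75th percentile in WT mock and 282% in WT irradiated, 286% in ago2a mock and 88.9% in ago2a irradiated, and 138% in ago2c mock and 47.8% in ago2c irradiated. The irradiated ago2 arrays were the 2 low ones and did not overlap with the other 4. The response to irradiation was 0.27 ± 0.20 in WT but -1.68 ± 0.20 in ago2a, with -1.53 ± 0.20 in ago2c, which leaves 31.1% and 34.5% of the mock signal in the ago2 lines.

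RHS12 (AT3G10710) encodes a pectin methylesterase, an enzyme that removes methyl groups from the pectin of the wall. It read 24.9% in WT mock and 28.9% in WT irradiated, 29.2% in ago2a mock and 8.44% in ago2a irradiated, and 12.8% in ago2c mock and 5.61% in ago2c irradiated. Mock ago2c lay nearer to the irradiated ago2 arrays than to the other mock arrays. The response came to 0.21 ± 0.21 (WT), -1.79 ± 0.21 (ago2a) and -1.19 ± 0.22 (ago2c). Only RHS16 had a smaller ago2c response among the 9 genes other than RHS14.

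RHS8 (AT1G63450), also called XUT1, encodes a glycosyltransferase that adds galacturonic acid to xyloglucan. Its signal was 9.14% in WT mock and 8.18% in WT irradiated, 10.9% in ago2a mock and 2.80% in ago2a irradiated, and 6.91% in ago2c mock and 1.77% in ago2c irradiated. The responses of the ago2 lines were nearly the same, at -1.96 ± 0.25 in ago2a and -1.96 ± 0.32 in ago2c, against -0.16 ± 0.21 in WT, where RHS8 was 1 of 2 genes with a value below 0.

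RHS14 (AT4G22080) belongs to the pectate lyase family, whose enzymes cleave pectin, and it was the dimmest of the genes on its own array scale. It was well above background only in WT irradiated, at 1.55%, and in ago2a mock, at 1.79%. The other 4 arrays, WT mock (1.07%), ago2a irradiated (0.454%), ago2c mock (0.583%) and ago2c irradiated (0.337%), have only a bound. With the dim array set at the faintest signal that still passed as well above background there, ago2a mock was at least 1.40-fold higher than ago2a irradiated and WT irradiated at least 1.13-fold higher than WT mock. These bounds leave out the spot error and hold for this background correction only. With normexp background correction the RHS14 response was -0.19 (log2) in ago2a and 0.18 in WT. In ago2c both arrays were dim and no fold is given, so RHS14 counts in the numbers below by its measured values only.

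Both peroxidases, which act on hydrogen peroxide and can cross-link wall proteins, showed the same picture. RHS19 (AT5G67400) read 35.3% in WT mock and 40.5% in WT irradiated, 44.1% in ago2a mock and 10.6% in ago2a irradiated, and 20.1% in ago2c mock and 6.33% in ago2c irradiated. The 2 irradiated ago2 arrays were lowest and did not overlap with the rest. Its responses were 0.20 ± 0.21 in WT, -2.06 ± 0.21 in ago2a and -1.66 ± 0.22 in ago2c. RHS18 (AT5G22410) went from 12.4% (mock) to 14.6% (irradiated) in WT, from 17.0% to 4.88% in ago2a and from 8.62% to 1.81% in ago2c. Its response in ago2c, -2.25 ± 0.36, was the largest measured in that line, and 21.0% of the mock signal was left. In ago2a it was -1.80 ± 0.23 and in WT 0.24 ± 0.21.

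The receptor kinases had smaller differences. RHS10 (AT1G70460) is PERK13, a kinase with a proline-rich, extensin-like outer part, known as a brake on root hair growth. It read 12.6% in WT mock and 15.3% in WT irradiated, 16.8% in ago2a mock and 7.93% in ago2a irradiated, and 12.7% in ago2c mock and 4.43% in ago2c irradiated. The 3 mock arrays lay close together, with WT and ago2c nearly equal, and the 2 irradiated ago2 arrays were the low ones. The response was 0.29 ± 0.21 (WT), -1.08 ± 0.21 (ago2a) and -1.52 ± 0.23 (ago2c). RHS16 (AT4G29180), a leucine-rich repeat receptor kinase, went from 21.5% (mock) to 24.2% (irradiated) in WT, from 26.7% to 10.9% in ago2a and from 14.7% to 6.65% in ago2c. With -1.29 ± 0.21 in ago2a and -1.15 ± 0.22 in ago2c, against 0.17 ± 0.21 in WT, its responses were among the smallest of the 10 in both ago2 lines.

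Of the transporters RHS2 (AT1G12950) belongs to the MATE efflux family. It read 22.2% in WT mock and 28.5% in WT irradiated, 30.8% in ago2a mock and 15.6% in ago2a irradiated, and 23.7% in ago2c mock and 7.31% in ago2c irradiated. The mock arrays of ago2c and WT were nearly equal here, as for RHS10. The response of -0.99 ± 0.21 in ago2a was the smallest of the 10 in that line and stood beside -1.70 ± 0.22 in ago2c and 0.36 ± 0.21 in WT. RHS15 (AT4G25220) is G3Pp2, a member of the glycerol-3-phosphate permease family. Its brighter probe went from 11.3% (mock) to 10.6% (irradiated) in WT, from 12.8% to 2.80% in ago2a and from 6.44% to 1.89% in ago2c. That probe was not well above background in ago2c irradiated, although its signal there was above the faintest signal that passed. The bound for ago2c mock, at least 3.40-fold higher, is therefore the measured ratio without its spot error. In ago2a the response was -2.19 ± 0.26, the largest measured in that line, and in WT it was -0.10 ± 0.21. The second probe of RHS15 was not well above background on any array and gives no fold.

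Counted over the 10 genes, none was at least 2-fold lower in WT, 9 were in ago2a (all but RHS2, at 1.98-fold) and 9 in ago2c (all but RHS14, dim on both arrays). Of all loci tested 1.57% were at least 2-fold lower in WT, 7.39% in ago2a and 5.5% in ago2c. Both ago2 lines passed this fold for 8 of the 10 genes and for 3.73% of all loci. RHS14 counts in ago2a by its measured value, although its bound is smaller. The response to irradiation differed between ago2a and ago2c by no more than 0.71 (log2, RHS2) among the 8 genes measured on all 4 arrays of these lines. It was larger in ago2c for RHS2, RHS10 and RHS18 and larger in ago2a for RHS12, RHS13, RHS16 and RHS19. The gaps of RHS13 (0.15) and RHS16 (0.14) were smaller than the spot error of either response, so their order is not resolved. The RHS18 gap was close to the spot error of its 2 responses together. For RHS14 and RHS15 the ago2c response has no measured end point and was not ranked against ago2a. Since the fit of ago2 against WT responses shares the arrays that chose the genes, these differences are given as sizes only. In ago2a the count of 2-fold changes over all loci depended on the scaling, with 280 higher and 1491 lower (15.8% higher), against 496 and 1102 (31% higher) after scaling to the median and 420 and 1147 (26.8%) after quantile normalization. Scaling to the median put the ago2a median at 0.25 over all loci (0.06 before) and at -1.60 over the 10 genes (-1.79 before), so both moved up together.

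**Figure D2:**
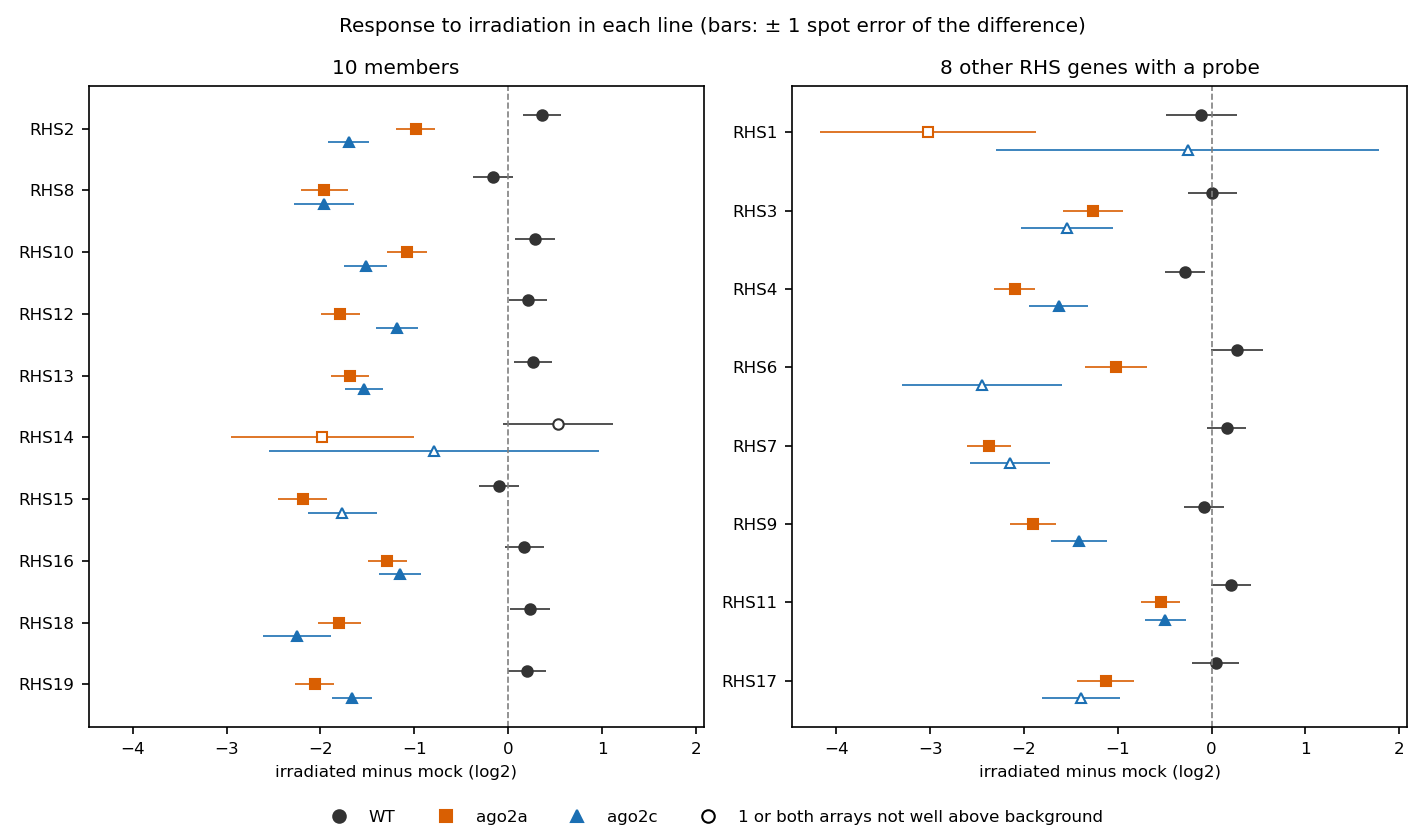
Irradiated minus mock (log2) in WT, ago2a and ago2c for the 10 genes (left) and the 8 other RHS genes with a probe (right), with bars of 1 spot error of the difference to each side and open symbols where 1 or both arrays were not well above background. WT values lie near 0 for every gene, between -0.28 and 0.53, and the values of both ago2 lines lie below them.

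The remaining RHS genes were looked at in the same way. A probe was found for 8 of 9 further loci (none for AT1G34330). After irradiation their median was 0.02 (WT), -1.58 (ago2a) and -1.48 (ago2c), and for 8 of 8 ago2c irradiated had the lowest measured value and ago2a irradiated the next, although the 3 lowest arrays of RHS1 were all dim. The highest array was ago2a mock for 7 of the 8 and WT irradiated for RHS6. RHS7 (AT1G54970), the proline-rich wall protein PRP1, went from 14.2% (mock) to 15.9% (irradiated) in WT, from 17.4% to 3.35% in ago2a and from 5.57% to 1.25% in ago2c, the last not well above background. Its response was -2.38 ± 0.24 in ago2a. RHS4 (AT1G30850) had responses of -0.28 (WT), -2.10 (ago2a) and -1.63 (ago2c), and RHS9 (AT1G69240), the methyl esterase MES15, had -0.08, -1.91 and -1.42. RHS11 (AT2G45890) is ROPGEF4, which activates the small GTPases that mark the site of hair outgrowth, and it differed least: 0.21 in WT, -0.54 ± 0.21 in ago2a and -0.49 ± 0.22 in ago2c. The others were dim in ago2c irradiated. The kinase gene RHS3 (AT1G16440) had -1.26 in ago2a, the receptor kinase gene RHS6 (AT1G51880) -1.02 and RHS17 (AT4G38390) -1.13, while in ago2c the mock arrays were at least 2.19-fold, 2.38-fold and 2.63-fold higher than the irradiated ones. The RHS17 bound is the measured ratio, as for RHS15. RHS1 (AT1G05990), an EF-hand protein gene, was well above background on both WT arrays and in ago2a mock only, and ago2a mock was at least 2.497-fold higher than ago2a irradiated.

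Regulators of epidermis fate, of hair and non-hair cells alike, and hair growth genes without an RHS name behaved less uniformly. Among 11 tested genes of root epidermis fate and the RSL regulators the median response to irradiation was -0.11 (WT), -0.30 (ago2a) and -1.22 (ago2c), and 1, 4 and 6 of them were at least 2-fold lower. RSL4 (AT1G27740) had -0.01 in WT, -1.98 in ago2a and -2.69 in ago2c, where the irradiated array was dim. RSL1 (AT5G37800) was dim on both irradiated ago2 arrays, with 0.30 in WT. RSL2 (AT4G33880), singled out after its values were seen because it shares the role of RSL4, had 0.14, -1.53 and -1.90. RHD6 (AT1G66470), which shares the role of RSL1 and was also singled out afterwards, changed little in ago2a. Its signal went from 8.84% (mock) to 8.21% (irradiated) in WT, from 12.0% to 9.75% in ago2a and from 7.37% to 2.05% in ago2c. WER (AT5G14750), a MYB protein of non-hair cells, had -0.56, -1.64 and -1.27. By contrast GL2 (AT1G79840), also singled out afterwards, had -0.11, 0.04 and -0.16, so that a marker of the neighbouring non-hair cells, which leaf hairs also express, stayed near 0 in all 3 lines. GL3 was dim on all 6 arrays and not tested.

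Among 11 growth genes the medians were 0.16 (WT), -1.32 (ago2a) and -1.44 (ago2c), and 0, 7 and 5 of them were at least 2-fold lower. The expansin genes EXPA7 (AT1G12560; 0.23, -2.44 and -2.59 in WT, ago2a and ago2c) and EXPA18 (AT1G62980; 0.19, -2.24 and -1.44), which loosen the wall, and the wall protein gene PRP3 (AT3G62680; 0.15, -2.34 and -1.80) were in the range of the RHS genes or beyond it. LRX1 (AT1G12040), an extensin-like protein of the hair wall, singled out afterwards because its 2 ago2 lines parted, had 0.30 in WT, -1.60 in ago2a and 1.03 in ago2c. The summed signal of the growth genes went from 454% of the 75th percentile in mock to 484% in irradiated WT, from 506% to 332% in ago2a and from 410% to 291% in ago2c. SCN1 (AT3G07880) and CSLD3 (AT3G03050), singled out afterwards as the brightest of these genes, held a large part of this sum. They changed little, in ago2a from 148.8% to 139% (SCN1) and from 97.46% to 86.8% (CSLD3). For the 10 RHS genes the sum went from 384% to 454% in WT, from 475.5% to 153% in ago2a and from 245% to 83.9% in ago2c. RHS13 made up most of each of these sums, with 234% in WT mock, 286% in ago2a mock and 88.9% in ago2a irradiated.

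Most markers of other root cells were lower on the irradiated ago2 arrays. The endodermis gene SCR, described below, was an exception in ago2a. Of 8 endodermis genes 7 were at least 2-fold lower in ago2a, 6 in ago2c and 1 in WT, and their summed signal went from 472% (mock) to 441% (irradiated) in WT, from 512% to 225% in ago2a and from 389% to 181% in ago2c. The Casparian strip gene CASP1 (AT2G36100) had a WT response of -0.11, an ago2a response of -1.73 and an ago2c response of -1.79, and CASP4 (AT5G06200), dim on both irradiated ago2 arrays, had 0.76 in WT. The summed signal of 5 tested root tip genes went from 12.8% to 12.9% in WT, from 13.9% to 5.72% in ago2a and from 11.5% to 3.08% in ago2c, and none was well above background on all 6 arrays. The root cap genes SMB (AT1G79580) and BRN2 (AT4G10350) were dim in ago2c irradiated and had -0.54 and 0.50 in WT. WOX5 (AT3G11260), singled out afterwards, was not lower in the ago2 lines. It went from 1.01% (mock) to 1.47% (irradiated) in ago2a and from 1.52% to 1.54% in ago2c, with both mock arrays dim. PLT1 (AT3G20840), also singled out afterwards, was lower in WT too, from 2.70% to 1.16%, and dim on every irradiated array. The summed signal of 5 leaf genes, each by its brightest probe, went from 68600% to 67550% in WT, from 60770% to 83010% in ago2a and from 91840% to 101400% in ago2c. The ago2a percentages carry the fall of the 75th percentile from 2338 (mock) to 1688 (irradiated). Unscaled signal by these probes went in ago2a from 446400 to 411200 (RBCS1A), 410200 to 404600 (LHCB1.1) and 289500 to 270900 (CA1). That of RCA rose from 266400 to 312000. The median scaled responses of the 5 leaf genes by the brightest probe were -0.02, 0.37 and 0.15, but in ago2a the sign depended on the probe. LHCB2.1 (AT2G05100) had -1.32 by its brightest probe in ago2a and 0.23 by the other. For RCA (AT2G39730) the brightest probe gave 0.70 in ago2a, and 6 of its 9 probes that were well above background on all arrays were below 0, with a range from -0.61 to 0.70. For CA1 (AT3G01500) the brightest probe gave 0.37, and 2 of 8 such probes were below 0, with a range from -0.60 to 1.12. In ago2c none of these probes of RCA or CA1 was below 0, with ranges from 0.08 to 0.25 and from 0.12 to 0.38. The RNA came from whole seedlings, so fewer root hair cells, a smaller share of root in the RNA and less RNA per hair cell cannot be told apart, and the part of root share in the RHS values was not tested.

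**Figure D3:**
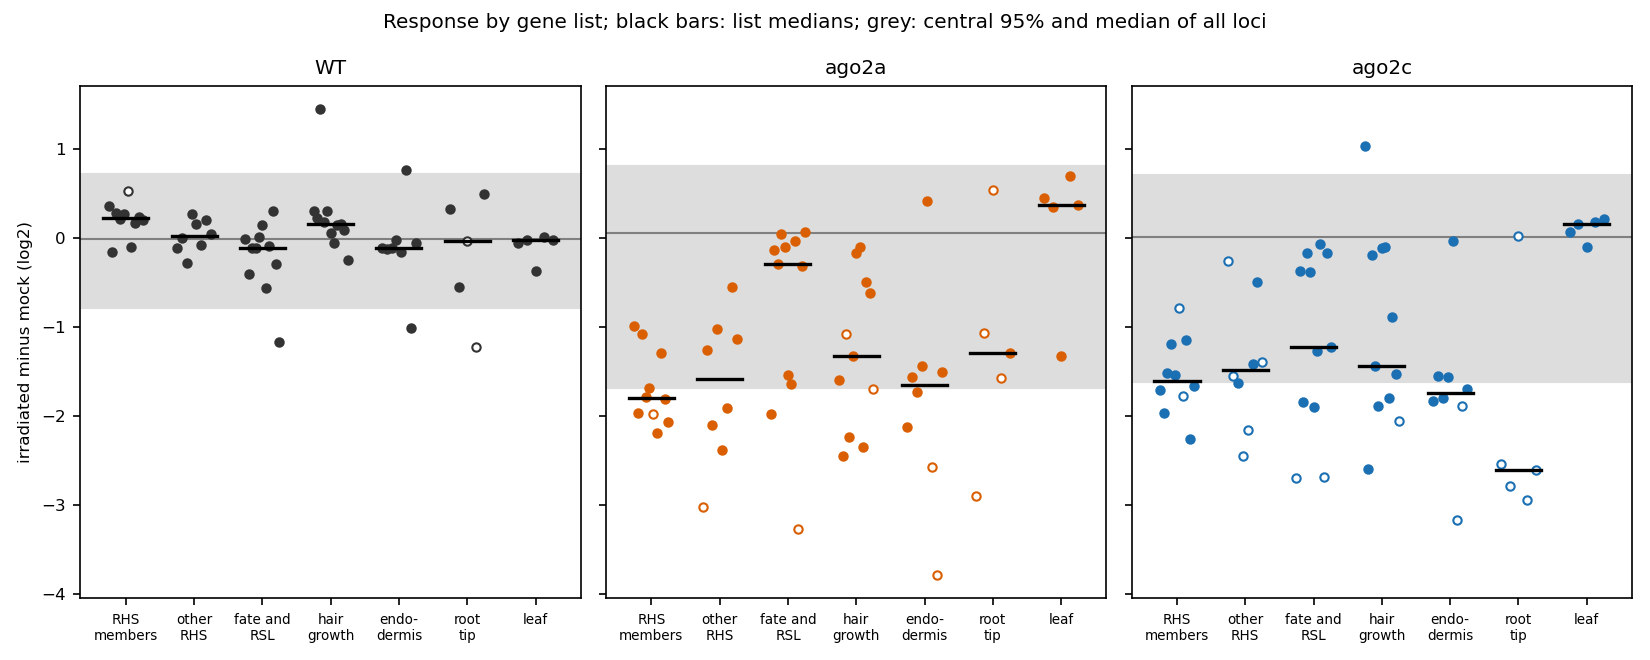
Irradiated minus mock (log2) of single loci by gene list in WT, ago2a and ago2c, with black bars at list medians, grey bands for the central 95% of all 20171 loci, a grey line at their median, and open symbols where 1 or both arrays were not well above background. The RHS genes lie inside the band in WT. In both ago2 lines they lie below the line of all loci, some below the band and others inside it. The lower edge is -1.68 in ago2a, where RHS2 is at -0.99, and -1.61 in ago2c, where RHS16 is at -1.15. Many other root genes also lie low in the ago2 lines, while most leaf genes lie above the line there by their brightest probe.

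In mock seedlings the medians of the ago2 lines stood on opposite sides of WT. All 10 genes were higher in ago2a mock than in WT mock, by 0.17 (RHS15) to 0.74 (RHS14, where WT was dim), with a median of 0.32 against -0.03 over all loci. The RHS15 value lay within its spot error, and those of RHS8 and RHS12 barely exceeded theirs. Of all 20171 loci 11306 were lower in ago2a mock than in WT mock. In ago2c mock 8 of the 10 were lower than in WT mock, as were 8938 of all loci, with a median of -0.65 against 0.04 over all loci. The lowest was RHS12, at -0.96 ± 0.21, followed among genes measured on both arrays by RHS15 (-0.81 ± 0.23) and RHS19 (-0.81 ± 0.21), while RHS2 (0.10 ± 0.21) and RHS10 (0.01 ± 0.21) lay within the spot error of WT. None of the 10 reached a 2-fold difference in mock seedlings in either line; of all loci 0.441% were at least 2-fold lower and 1.22% higher in ago2a, and 3.81% lower and 0.773% higher in ago2c. With normexp background correction the ago2c mock median of the 10 genes was -0.10. The ago2c mock array belonged to the second array group and to the other slide, whereas ago2a mock shared both with WT, and the part of these in the ago2c values was not tested. After irradiation all 10 genes were lower than WT in both lines, with medians of -1.62 in ago2a and -2.28 in ago2c. The extremes in ago2c were RHS18, at 12.4% of the WT irradiated signal, and RHS10, at 28.9%. At least 2-fold lower than WT irradiated were 8 of 10 genes in ago2a (all but RHS2 and RHS10), where 6% of all loci were, and 10 of 10 in ago2c, where 9.86% were. For RHS14 these are again measured values, with bounds of at least 1.22-fold in ago2a and 1.09-fold in ago2c.

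**Figure D4:**
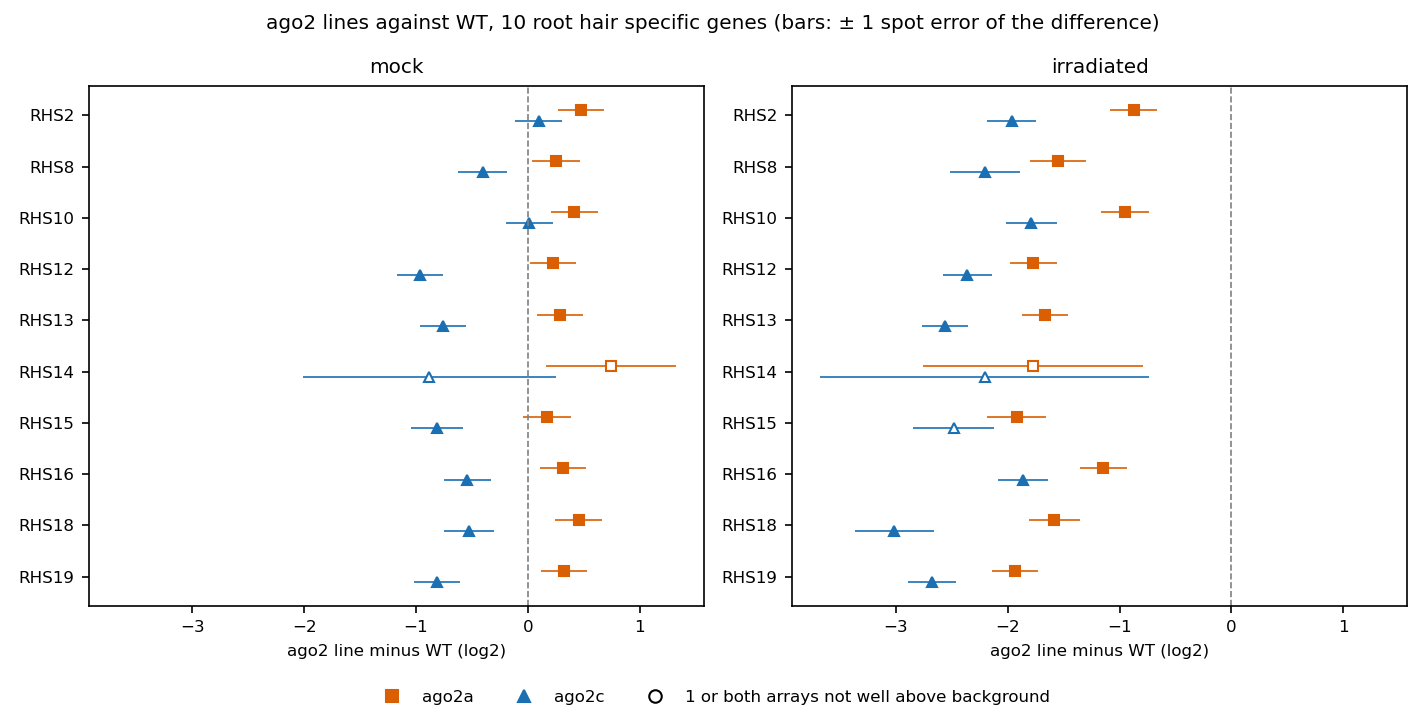
Difference of ago2a (squares) and ago2c (triangles) from WT (log2) for the 10 genes in mock (left) and irradiated seedlings (right), with bars of 1 spot error of the difference to each side and open symbols where 1 or both arrays were not well above background. In mock seedlings ago2a lies above 0 for all 10 genes and ago2c below 0 for 8, and after irradiation all points lie below 0.

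Each member had 1 informative probe, so the agreement between probes that parted the arrays could not be examined for the RHS genes themselves. Only 2 root genes of the lists, both of the endodermis, had 2 probes well above background on all arrays, and they are named after their values were seen. MYB36 (AT5G57620), a regulator of endodermis formation, gave responses of -1.50 and -1.43 in ago2a, with -1.69 and -1.19 in ago2c. SCR (AT3G54220), a regulator of endodermis identity, gave 0.37 and 0.42 in ago2a, with -0.03 and 0.15 in ago2c. The part of the array group in the ago2a responses was not tested.

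The 9 RHS genes that were well above background on at least 4 arrays shared a profile, and each correlated over the 6 arrays with the mean of the other 8 at r between 0.954 (RHS2) and 0.995 (RHS16). These are descriptions over 6 arrays that share their scaling. The loci outside all lists most like the mean profile were TBL30 (AT2G40160; r = 0.9998), the peroxidase gene PER64 (AT5G42180; r = 0.9995), AT2G47200 (r = 0.9988), AT5G04960 (r = 0.9985) and GMD1 (AT5G66280; r = 0.9984), taken from 3399 candidate loci. PER64 had responses of 0.18 (WT), -1.83 (ago2a) and -1.77 (ago2c). The profile was common, since 1138 of the candidates had r over 0.9.

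The irradiation fit over all loci used the lines in place of replicates, so its p-values measure the spread of the response between these pooled samples. The genotype fit had no term for line, so it counted both treatments of a line as separate samples of its genotype. Its p-values therefore do not measure the spread between lines alone. In the fit of the response difference the only spread of a locus itself is the gap between its ago2a and ago2c responses. No spread was measured for WT. In each fit limma also moved the spread of a locus towards a common value estimated from all loci, so the p-values rest on other loci too. None of the 10 genes was called by limma at an adjusted p under 0.05 in the irradiation fit (0.238% of all loci called), in the genotype fit (0.00496%) or in the fit of the response difference between ago2 lines and WT (0%). At an unadjusted p under 0.05 the counts were 2, 0 and 10 of the 10 genes, against 13.9%, 3.91% and 8.82% of all loci. The count of the last fit depended on the scaling: with each array scaled to its median 8 of the 10 genes and 3.15% of all loci were called, with the authors' values 8 and 3.17%, and with normexp background correction 6 and 2.81%. The authors' values are nearly the same as the median scaling, so these 2 counts are not separate results. Without the WT line the irradiation fit called 8 of the 10 genes and 5.41% of all loci. Because the genes were chosen on these arrays, nothing is read from these counts.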

How the data were processed

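Per the file headers, Feature Extraction 11.0.1.1 made the spot intensities, whose processed form was already background-corrected. The deposited series matrix gives a linear ratio of unstated scale and per-probe centring, with column medians of 0.935, 0.932, 0.878, 0.956, 1.06 and 1.03 (WT, ago2a, ago2c, mock before irradiated). For 100% of the probes compared it closely followed the processed signal over the array median, times a constant for each probe. It served as an alternative that is nearly the same as median scaling. The deposited flags gave outliers and probes well above background. Flagged spots were dropped (53 probes), spots averaged and values expressed as log2 processed signal minus the 75th percentile of the array. Of 43550 probes 34309 matched a locus in a RefSeq table of assembly TAIR10.1. A locus entered with its brightest probe among those well above background on 2 or more of the 6 arrays. Fits used limma 3.58.1 (R 4.3.3) with Benjamini-Hochberg adjustment: irradiation with line as a block, genotype with irradiation as a term, and their interaction (residual degrees of freedom 2, 3 and 1). The fits were tested on simulated data. At least 2-fold changes asked for a brighter array well above background, and a dim array gives a bound against its lowest signal well above background. Named genes were all members and remaining RHS genes, up to 3 of each other list by largest mean response among loci bright on at least 4 arrays, and the 5 loci most like the members; others are marked as singled out afterwards, and 1 gene the rule names is not reported here. The members and lists were chosen with earlier results of these data known. Sequences of the genes were not used here, so the planned promoter search was not run.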

Additional observations from a re-analysis of the deposited data

Results flagged for a closer look

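For 8 of the 10 RHS genes the WT response to irradiation was above 0 and both ago2 responses were below 0, as for 12% of all loci. The mean response of the ago2 lines minus that of WT was -1.70 (log2) for RHS2, -1.58 for RHS10, -1.70 for RHS12, -1.88 for RHS13, -1.92 for RHS14, -1.39 for RHS16, -2.26 for RHS18 and -2.06 for RHS19. Each WT value rests on 1 mock and 1 irradiated array and lay between 0.17 and 0.53, and 1 of the 2 arrays behind the RHS14 value was dim. For RHS12, RHS14, RHS16 and RHS19 the WT value was about as large as its spot error or smaller, so its sign is not resolved. The RHS14 mean difference is a measured value only, since the ago2a response is a bound and both ago2c arrays were dim. The fit of the response difference over all loci, with limma and Benjamini-Hochberg adjustment, called none of these genes, and it used the arrays on which they were chosen. The difference was not tested on other arrays.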

How the results depend on the processing

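Over 7 alternatives of background correction, scaling, filter and probe choice the responses of single RHS genes in the ago2 lines were below 0 in 136 of 136 values, and in WT above 0 in 55 of 68. Many of these values are not separate checks. The alternatives of filter and probe choice returned the main value for every RHS gene they kept, since each gene had 1 informative probe. The authors' values followed median scaling closely, with -0.8904 and -0.8889 for RHS10 in ago2a. Of the 204 values 7 moved by over 1.5-fold, all with normexp, run with an offset of 50 added to every corrected intensity. With it the median response in ago2a was -1.13 in place of -1.79 and 6 genes in place of 9 were at least 2-fold lower there. In the fit of the response difference the number of RHS genes called was 0 in the main setting, 6 with normexp, 8 with median scaling and 8 with the authors' values, and over all loci the count ran from 0 to 640. Leaving out a line gave 0 to 8 called RHS genes in the irradiation fit, with 8 without WT, and 0 in the genotype fit. Over all loci the irradiation fit called 48 loci, 1 with no filter on dim probes, 0 without ago2a or with the array group as a block, 19 without ago2c and 1091 without WT, and the genotype fit 0 to 4. At 3-fold in place of 2-fold, 5 RHS genes in place of 9 were lower in ago2c. The causes were not tested. Probes well above background on all 6 arrays left 8 of the 10 genes. The genotype fit without WT, and the fit of the response difference without a line or with the array group as a block, could not be fitted, and the promoter search was not run. No block by replicate number was possible because each condition had 1 array, and the irradiation fit already pairs both treatments by line. Precision is limited by single arrays per condition and, for RHS14, by signals near background.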
